A study of Homo sapiens with 6 samples.

Results

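The genes described are pre-mRNA splicing factors and RNA helicases, measured in IMR32 cells, a human neuroblastoma cell line in which MYCN is amplified. They were taken by symbol from a table of transcript abundances: every row whose symbol starts with HNRNP, SRSF, SF3A, SF3B, SNRP or PRPF, or with DDX, DHX or RBM followed by a digit. DDX1, a neighbour of MYCN, was left out. The rule gave 154 of 11351 genes. The listed genes made up 61.2% to 65.9% of the TPM scale in a library, so every rank of abundance below is among listed rows. IMR32 cells received either the solvent DMSO (3 libraries) or 20 µM sAKZ692 (3 libraries) for 24 h. The study describes sAKZ692, known here by its code name, as an activator of the transcription factor NRF2. The line and the time of harvest were shared by all 6 libraries. Values are TPM, the abundance of a transcript relative to all others and corrected for its length, so that levels can be compared between genes.

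Splicing removes introns in a large ribonucleoprotein machine, the spliceosome, which is built from small nuclear RNAs, the Sm proteins that ring them and particle-specific proteins. The SF3A and SF3B proteins hold the branch point, the PRPF proteins shape the later complexes, and DEAD-box (DDX) and DEAH-box (DHX) helicases rearrange RNA. The SRSF proteins bind exons and mostly favour their inclusion, the hnRNP proteins coat nascent RNA and often repress nearby splice sites, and RBM proteins are a mixed class that shares an RNA-binding fold. Many helicases act outside splicing, in ribosome assembly, mRNA export, translation or RNA sensing.

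Most of the splicing factors that changed were lower with sAKZ692. Genes averaging 1 TPM or more were tested. Of the 123 genes of the rule that met this, 37 were lower, 5 were higher and 81 did not pass an adjusted p of 0.05 in limma, a linear model fitted to log2(TPM + 1) across all genes. That is 30.1% lower and 4.07% higher, against 8.50% lower and 24.1% higher among all 9137 genes tested. The median log2 fold change of the 123 was -0.19, beside 0.14 over all genes tested. A negative fold change was found in 92 of the 123 and in 34.1% of all genes. The falls ran from -0.20 for SNRPD2 to -0.74 for the pseudogene HNRNPA1P10 on the log2(TPM + 1) scale. RBM24 was the only gene that passed with a change of at least 1 on this scale, which understates changes of low genes. The ratio of mean TPM was 2.21 for RBM20, 2.08 for DDX11L2 and 0.49 for HNRNPA1P10. In each of the 42 called genes, the treated libraries all lay on one side of the DMSO libraries. Groups did not overlap in 52.0% of the 123, close to the 50.5% among all genes tested. TPM is relative to all other transcripts, so a lower TPM alone does not show less RNA of a gene per cell. Lower RNA per cell and fewer cells that express a gene also cannot be told apart in such bulk samples.

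**Figure D1:**
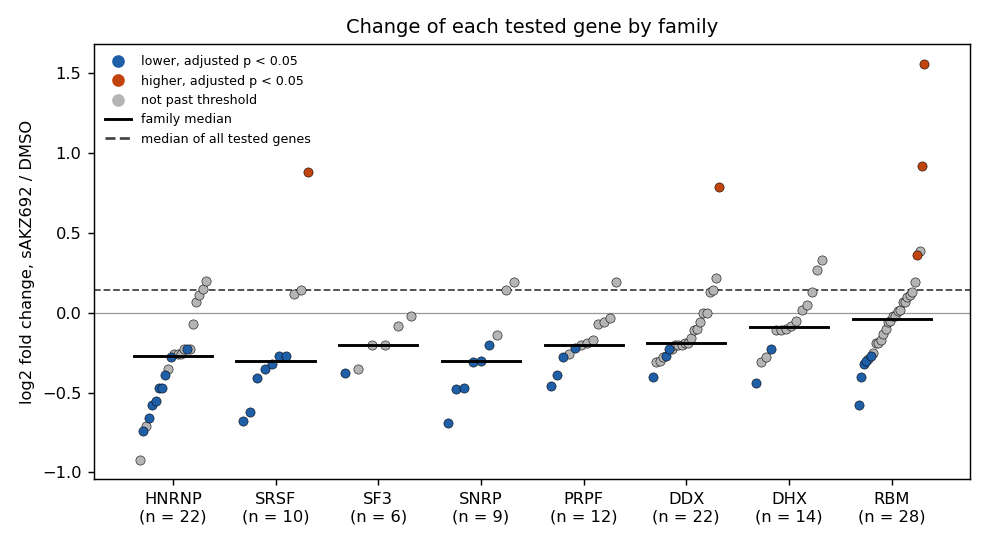
Log2 fold change of sAKZ692 over DMSO on log2(TPM + 1) (vertical axis) for each of the 123 tested genes, by family (horizontal axis); blue and orange points passed an adjusted p of 0.05, the black bars are family medians and the dashed line is the median of all genes tested (0.14). All 8 family medians lie below the dashed line, and the 5 orange points lie in the SRSF, DDX and RBM families.

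The other 31 rows averaged under 1 TPM. Pseudogenes made up much of the list, with 36 of the 154 rows, of which 10 were tested. The untested rows also held DDX58, DHX58 and DDX60L, helicase genes of the antiviral response. DDX58, which encodes the RNA sensor RIG-I, was at 0.409, 0.600 and 0.570 TPM with DMSO and 0.554, 0.970 and 0.450 TPM with sAKZ692, with overlapping groups. Under all 14 alternative settings, 18 of the 42 called genes kept their call, 16 of them lower and 2, RBM24 and SRSF8, higher.

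The calls differed with the level of the gene. Of the 49 splicing and helicase genes that averaged 100 TPM or more, 27 were lower (55.1%) and 0 were higher, while 23.8% of all genes at that level were lower and 13.2% were higher. Of the 74 below 100 TPM, 10 were lower (13.5%) and 5 were higher, beside 6.42% and 25.6% of all tested genes below that level. The 5 genes that rose all averaged under 10 TPM. Summed over the 154 rows, splicing and helicase genes made up 3.04% of the listed TPM with DMSO and 2.44% with sAKZ692.

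**Figure D2:**
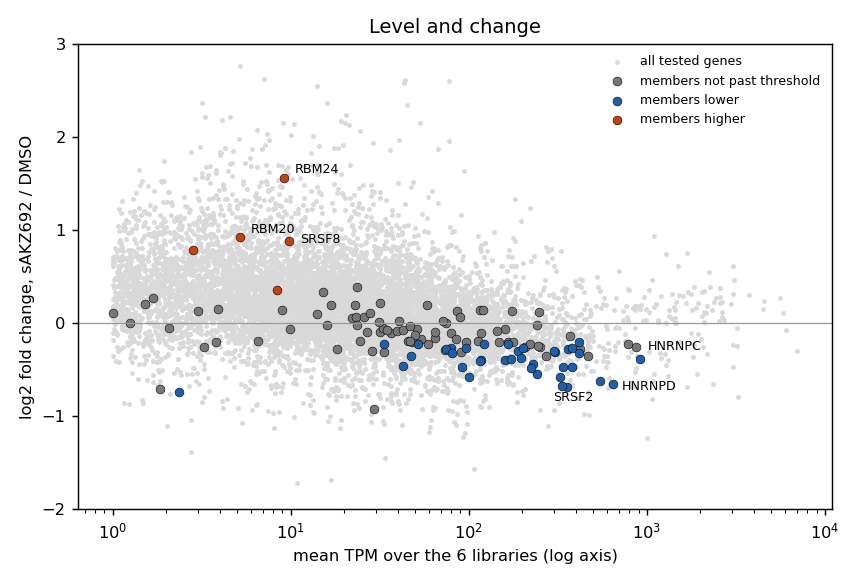
Mean TPM over the 6 libraries (horizontal axis, logarithmic) against the log2 fold change of sAKZ692 over DMSO (vertical axis) for all 9137 tested genes (light grey) and for the splicing and helicase genes (dark grey, not past the threshold; blue, lower; orange, higher). The blue points gather at high levels, and the 5 orange points lie below 10 TPM.

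Replicate 3 of sAKZ692 stood apart. Across genes, which are not independent, it correlated with the other treated libraries at Pearson's r = 0.971 and 0.972, while r was 0.992 between those and 0.994 to 0.995 between DMSO libraries. Without replicate 3, 64 of the 123 were lower (14.5% of all genes) and 8 higher (34.6% of all genes), among them all 37 and all 5. It was the highest treated library in 20 of the 37 lower genes (54.1%) and in 40.0% of all lower genes. Scaling by median ratios moved the median of all genes to -0.03 and gave 64 lower and 3 higher (19.2% and 13.6% of all genes). Quantile normalization gave 38 lower and 3 higher (13.0% and 11.8% of all genes) and kept 29 of the 37 falls. A minimum of 5 TPM gave 36 lower and 4 higher (10.4% and 23.4% of all genes). With DMSO replicate 1, 2 or 3 left out, 19, 17 and 20 were lower, beside 406, 404 and 443 of all 9137 genes. Of 14 noradrenergic neuroblastoma markers 9 were listed, led by MYCN, and they summed to 2840.2 to 3007 TPM in DMSO and 3144 to 3376 TPM in treated libraries. Of 11 mesenchymal markers 3 were listed, at 278 to 281 TPM and 247 to 274 TPM, mostly TWIST1, and the 3 listed blood markers of 4 summed to at most 4.30 TPM. CHGB was the only marker that passed, higher with sAKZ692, and the part of these markers in the results was not tested.

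**Figure D3:**
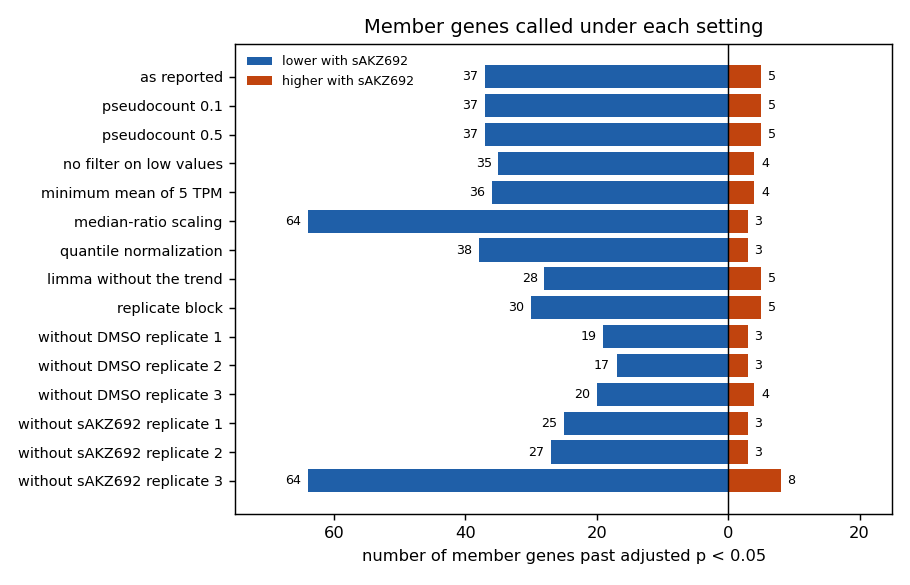
Number of splicing and helicase genes past an adjusted p of 0.05 (horizontal axis; lower to the left, higher to the right) under each setting (rows). Lower genes outnumber higher ones in every setting, from 17 to 64 against 3 to 8.

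The hnRNP genes were among the most abundant, and those that changed fell. HNRNPD encodes AUF1, a protein known for binding AU-rich elements in mRNA. Its level was 779, 800.2 and 789 TPM with DMSO and 455, 514 and 532 TPM with sAKZ692. Every treated library lay far below every DMSO library, and HNRNPD fell by 0.66 on the log2 scale (standard error 0.08, adjusted p = 0.00136). HNRNPM, a splicing regulator, stood at 393, 401 and 377 TPM with DMSO and 229.8, 246 and 315 TPM with sAKZ692, a log2 fold change of -0.58 (adjusted p = 0.0091). Replicate 3 of sAKZ692 was the closest to DMSO. HNRNPL, which binds CA-rich RNA, showed the same order, with 289.99, 290.2 and 281 TPM with DMSO and 177, 181 and 237 TPM with sAKZ692 (log2 fold change -0.55, adjusted p = 0.0107).

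HNRNPC, which binds uridine tracts and was the most abundant listed gene of the family, fell from 1039 ± 7.42 to 794 ± 53.9 TPM (SD, n = 3; log2 fold change -0.39, adjusted p = 0.00643). HNRNPA3, an RNA-binding protein related to HNRNPA1, fell from 395 ± 4.40 to 285 ± 15.7 TPM (adjusted p = 0.00242). HNRNPDL, a relative of HNRNPD, HNRNPH3 and HNRNPLL, a relative of HNRNPL, had log2 fold changes of -0.47, -0.28 and -0.23. HNRNPK encodes a poly(C)-binding protein and was the second most abundant listed gene of the family. It was at 968, 969 and 924 TPM with DMSO and 727, 751 and 915 TPM with sAKZ692. Its groups did not overlap, but replicate 3 of sAKZ692 was near DMSO and it did not pass (adjusted p = 0.0702). Without replicate 3 its log2 fold change was -0.37 (adjusted p = 0.000194), and it also passed after either scaling (adjusted p = 0.0122 and 0.031). HNRNPAB, at 347, 369.9 and 535 TPM with sAKZ692 against 522 ± 12.8 TPM with DMSO, had overlapping groups and did not pass (adjusted p = 0.117). It passed after median-ratio scaling (0.0341) and without replicate 3 (4.3e-05).

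Of 22 tested HNRNP rows 9 were lower, 0 higher and 13 not past the threshold, with a median of -0.27. The shares over all genes tested were 8.50% lower and 24.1% higher. Of the 22 rows 16 are annotated as protein-coding, and 8 of these were lower. After median-ratio scaling 14 of the 22 were lower (19.2% of all genes). Leaving out replicate 3 of sAKZ692 gave 15 lower (14.5% of all genes) and 1 higher (34.6%), the pseudogene HNRNPKP3. Leaving out any 1 DMSO library gave 5 lower. HNRNPA3, HNRNPC, HNRNPD, HNRNPL and HNRNPM kept their calls under every alternative. HNRNPDL lost its call when any 1 DMSO library was left out (adjusted p up to 0.0585). HNRNPH3 and HNRNPLL lost theirs when any library other than replicate 3 of sAKZ692 was left out, and HNRNPH3 also under quantile normalization (adjusted p = 0.114). HNRNPA1 itself was not analysed here.

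Pseudogene rows of this family are uncertain, because a read of 50 bases can match a copy and its source alike. The table held 23 rows named HNRNPA1P, of which 3 were tested. In GENCODE v29 transcripts, the share of their 50-base windows that is identical in HNRNPA1 ranged from 0 to 72.8%, with a median of 1.97%. The highest share was that of HNRNPA1P10, at 3.59, 2.81 and 3.15 TPM with DMSO and 2.35, 1.32 and 1.00 TPM with sAKZ692 (log2 fold change -0.74, adjusted p = 0.0336). Its groups did not overlap, and its call was lost without any 1 DMSO library (adjusted p up to 0.117) or without replicate 2 of sAKZ692 (0.0877). HNRNPA3P6, a copy of HNRNPA3 on chromosome 3, shared 76.6% of its windows with its source gene. It was at 28.9, 46.5 and 37.5 TPM with DMSO and 22.8, 9.86 and 30.2 TPM with sAKZ692, with overlapping groups (log2 fold change -0.92, adjusted p = 0.0903; without replicate 3 of sAKZ692, -1.24 and 0.00777). Coding bases 301 to 360 of HNRNPA3 (chromosome 2) are shown beside the matching stretch of the copy, because they are identical over more than the length of a read.
HNRNPA3: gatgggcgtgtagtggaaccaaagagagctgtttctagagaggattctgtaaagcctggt
HNRNPA3P6: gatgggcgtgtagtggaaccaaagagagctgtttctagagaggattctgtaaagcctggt

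The SR protein genes mostly fell, with a single rise. SRSF7, also known as 9G8, was at 410.2, 400.2 and 429 TPM with DMSO and 245, 274 and 253 TPM with sAKZ692. SRSF2, also known as SC35, was at 655, 649 and 673 TPM with DMSO and 412, 457 and 421 TPM with sAKZ692. In both genes the treated libraries lay close together and far below DMSO, replicate 3 included. The log2 fold changes were -0.68 (standard error 0.07, adjusted p = 0.000894) for SRSF7 and -0.62 (standard error 0.07, adjusted p = 0.00107) for SRSF2. SRSF10, an SR protein known to act as a repressor when dephosphorylated, fell from 132 ± 6.43 to 99.5 ± 6.79 TPM (SD, n = 3; adjusted p = 0.00698). SRSF1, a general splicing factor, fell from 462 ± 4.48 to 369 ± 15.6 TPM (adjusted p = 0.00767), a call lost under quantile normalization (adjusted p = 0.114).

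SRSF4, SRSF6 and SRSF9, further SR proteins, had log2 fold changes of -0.35, -0.27 and -0.27. The call of SRSF4 was lost without DMSO replicate 1 or 2, that of SRSF6 without any 1 DMSO library or replicate 1 of sAKZ692, and that of SRSF9 without any library other than replicate 3 of sAKZ692. Quantile normalization ended the calls of SRSF6 (adjusted p = 0.111) and SRSF9 (adjusted p = 0.22). SRSF5 was at 241, 229 and 249 TPM with DMSO and 261, 258 and 262 TPM with sAKZ692, all treated libraries above DMSO, but it did not pass (adjusted p = 0.171). It was called higher under quantile normalization (adjusted p = 0.0449) and had a log2 fold change of -0.06 after median-ratio scaling. SRSF12, at 9.06, 8.37 and 7.74 TPM with DMSO and 9.59, 10.2 and 8.41 TPM with sAKZ692, had overlapping groups and did not pass.

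SRSF8, which arose as a processed copy of SRSF2, went the other way. It was at 6.48, 6.57 and 6.67 TPM with DMSO and 12.5, 11.1 and 15.5 TPM with sAKZ692. The treated libraries were all well above DMSO, and the ratio of mean TPM was 1.98, with a log2 fold change of 0.88 (standard error 0.13, adjusted p = 0.00329). The call was kept under every alternative. SRSF2 lies on chromosome 17 and SRSF8 on chromosome 11. No 50-base window of the GENCODE SRSF8 transcripts is identical in an SRSF2 transcript. The first 60 coding bases are shown because they carry the resemblance, with the 6 bases of SRSF8 that differ from SRSF2 in capitals.
SRSF2: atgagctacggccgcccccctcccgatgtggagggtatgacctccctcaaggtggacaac
SRSF8: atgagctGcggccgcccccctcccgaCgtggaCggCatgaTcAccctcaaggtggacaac

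Of the 10 listed SRSF genes, 7 were lower, 1 higher and 2 not past the threshold, with a median of -0.30. Over all genes tested, 8.50% were lower and 24.1% higher. Median-ratio scaling gave the same SRSF counts, beside 19.2% lower and 13.6% higher over all genes. Quantile normalization gave 4 lower and 2 higher (13.0% and 11.8% of all genes). Leaving out 1 DMSO library gave 4 or 5 lower and 1 higher. All 10 have at least 1 GENCODE transcript annotated for nonsense-mediated decay, the route by which several SR proteins are known to limit their own mRNA. Among the 113 protein-coding genes of the rule that were tested, 64 (56.6%) have such a transcript, beside 43.4% of all 8596 protein-coding genes tested. Gene-level TPM does not separate these isoforms.

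**Figure D4:**
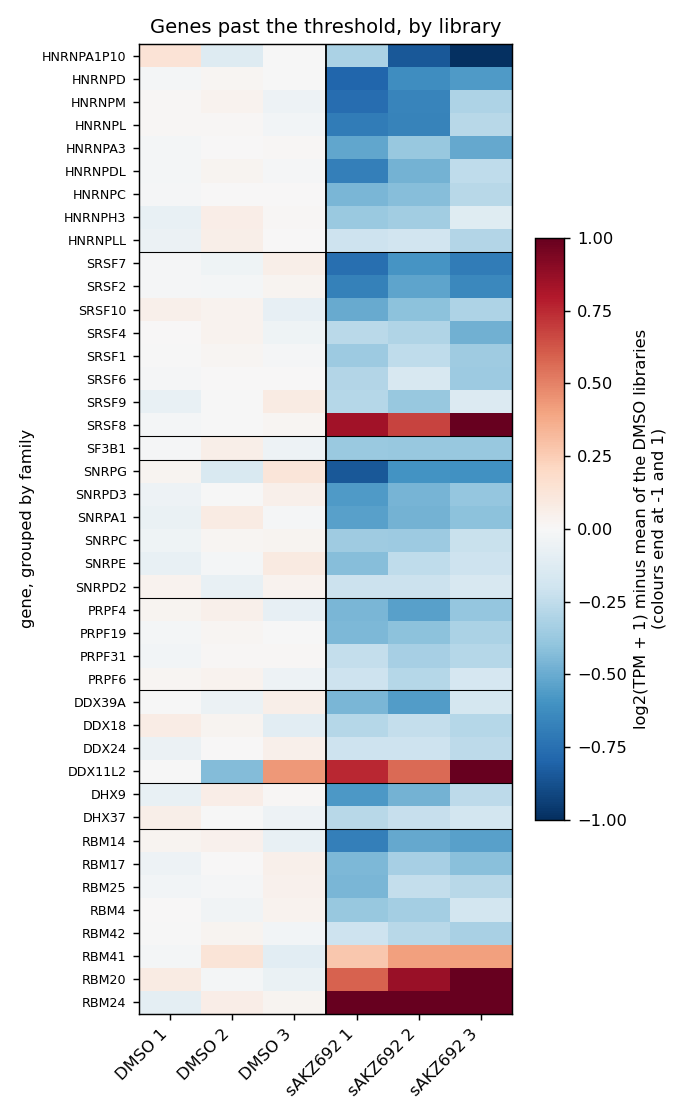
Log2(TPM + 1) minus the mean of the DMSO libraries (colour, ending at -1 and 1) for the 42 genes past the threshold (rows, grouped by family with black lines between) in each of the 6 libraries (columns). The 37 lower genes are blue in all 3 treated libraries, and the 5 red rows are SRSF8, DDX11L2, RBM41, RBM20 and RBM24.

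Among the 5 listed genes of the Sm ring, the shared core of the spliceosomal particles, SNRPG had the largest fall. It was at 449, 396 and 478 TPM with DMSO and 244, 289 and 288 TPM with sAKZ692, with every treated library below DMSO. It fell by 0.69 on the log2 scale (standard error 0.10, adjusted p = 0.00285). SNRPD3 fell from 261 ± 9.35 to 188 ± 11.6 TPM (SD, n = 3; adjusted p = 0.00313). SNRPE and SNRPD2 had log2 fold changes of -0.30 and -0.20, and both calls were lost without any library other than replicate 3 of sAKZ692 and under quantile normalization (adjusted p = 0.112 and 0.586). SNRPN, a neuron-rich Sm protein from an imprinted locus, was at 115, 113 and 114 TPM with DMSO and 144, 143 and 97.2 TPM with sAKZ692. Replicates 1 and 2 lay above DMSO and replicate 3 below, so it did not pass (log2 fold change 0.14, adjusted p = 0.478). Without replicate 3 its log2 fold change was 0.33 (adjusted p = 0.00069), and after median-ratio scaling of all 6 libraries it was -0.04.

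Among particle-specific proteins, SNRPA1, the U2 protein A′, fell from 106 ± 5.49 to 76.2 ± 3.51 TPM (SD, n = 3; adjusted p = 0.00336). SNRPC, the U1 protein that helps to recognise the 5′ splice site, fell from 339.8 ± 9.44 to 273 ± 14.9 TPM (adjusted p = 0.0114), a call that needed DMSO replicates 2 and 3 (adjusted p up to 0.0551 without them). SNRPA, the U1 protein A, was at 369, 393 and 397 TPM with DMSO and 285, 308 and 487 TPM with sAKZ692. Its treated libraries lay on both sides of DMSO and it did not pass (adjusted p = 0.575), while without replicate 3 its log2 fold change was -0.38 (adjusted p = 0.00053). Of 9 SNRP rows 6 were lower, 0 higher and 3 not past the threshold, with a median of -0.30. Those 3 were SNRPA, SNRPN and the pseudogene SNRPFP1. In the whole set of tested genes 8.50% were lower and 24.1% higher. Quantile normalization gave 4 lower (13.0% of all genes), and leaving out 1 DMSO library gave 3 or 4. SNRPG, SNRPD3 and SNRPA1 kept their calls under every alternative.

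Of the branch point complexes, SF3B1, the protein that clamps the branch helix and is mutated in several cancers, was the single gene that passed. It was at 222, 233 and 216 TPM with DMSO and 173, 172 and 172 TPM with sAKZ692. The treated libraries were almost identical and all below DMSO, with a log2 fold change of -0.38 (standard error 0.06, adjusted p = 0.00411) that was called under every alternative. SF3B3, the most abundant listed gene of the family, was at 319, 304 and 285 TPM with DMSO and 206, 231 and 281 TPM with sAKZ692, and missed the threshold (adjusted p = 0.0515). Without replicate 3 its log2 fold change was -0.47 (adjusted p = 0.000528), and it passed after median-ratio scaling (adjusted p = 0.011). SF3B6, which touches the branch adenosine, averaged 245 ± 13.2 and 241 ± 6.61 TPM (SD, n = 3), and its log2 fold change was -0.02, or 0.05 under quantile normalization. Of 6 genes 1 was lower, 0 were higher and 5 did not pass, with a median of -0.20. Among all genes tested 8.50% were lower. After median-ratio scaling 3 of the 6 were lower, and 4 without replicate 3 of sAKZ692.

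In the PRPF family, PRPF19, a scaffold and ubiquitin ligase of the catalytic spliceosome, was at 193, 199 and 194 TPM with DMSO and 143, 147 and 157 TPM with sAKZ692. All treated libraries were lower, with a log2 fold change of -0.39 (standard error 0.06, adjusted p = 0.00429). PRPF4, a protein of the U4/U6 particle, fell from 49.9 ± 2.41 to 36.0 ± 2.05 TPM (SD, n = 3; adjusted p = 0.00514). PRPF31, another U4/U6 protein, fell from 81.6 ± 1.24 to 66.9 ± 2.28 TPM, and this call was lost without any 1 DMSO library (adjusted p up to 0.0645). PRPF6, which bridges the tri-snRNP, had a log2 fold change of -0.22, and its call was lost without any library other than replicate 3 of sAKZ692 and under quantile normalization (adjusted p = 0.0564).

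PRPF8, the core of the catalytic centre and the most abundant listed gene of the family, was at 265, 275 and 274 TPM with DMSO and 192, 216 and 278 TPM with sAKZ692. Replicate 3 lay above all DMSO libraries, and PRPF8 did not pass (adjusted p = 0.148). Without replicate 3 its log2 fold change was -0.41 (adjusted p = 0.000545). Of 12 PRPF genes 4 were lower, 0 higher and 8 not past the threshold, beside 8.50% lower and 24.1% higher among all genes tested. The median of the 12 was -0.20. Both median-ratio scaling (19.2% of all genes lower) and leaving out replicate 3 (14.5%) gave 7 lower, and leaving out any 1 DMSO library gave 2.

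**Figure D5:**
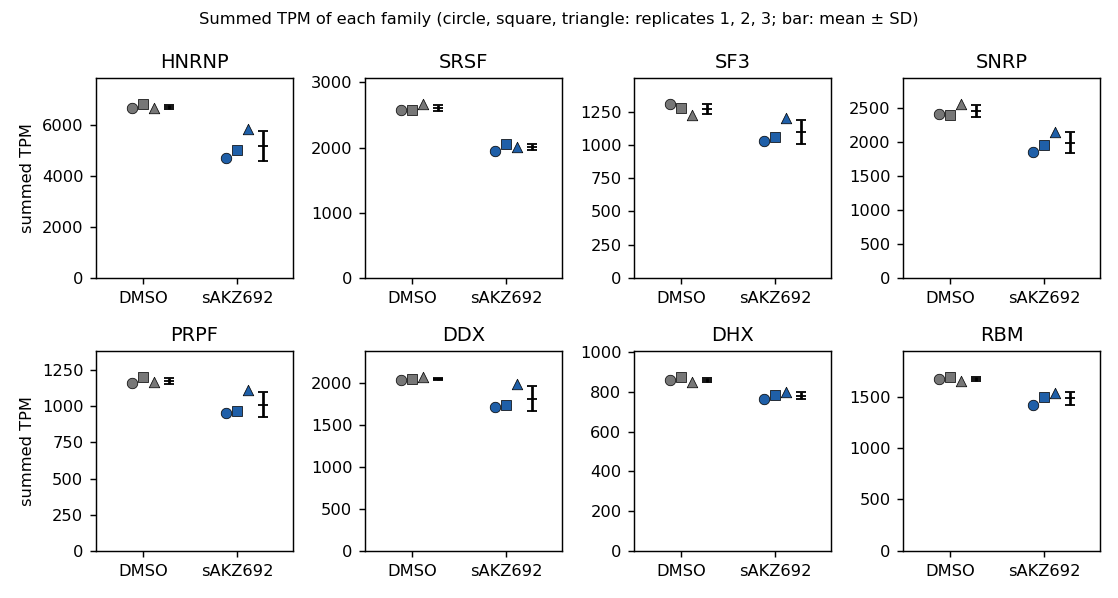
Summed TPM of all rows of each family (vertical axes, from 0) in each library, with circles, squares and triangles for replicates 1, 2 and 3 and a bar for mean ± SD (n = 3). In all 8 families the treated libraries lie below the DMSO libraries, and outside the SRSF family replicate 3 of sAKZ692 is the highest treated library.

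Summed over all rows of a family, TPM was lower with sAKZ692 in all 8 families. The HNRNP rows summed to 6655, 6811 and 6672 TPM with DMSO and 4698, 5007 and 5838 TPM with sAKZ692, a difference of -22.8% between means. The SRSF genes summed to 2583, 2584 and 2662 TPM with DMSO and 1955, 2057 and 2014 TPM with sAKZ692, a difference of -23.0%, with replicate 3 between the other treated libraries. The differences were -19.0% for SNRP, -14.1% for PRPF, -13.5% for SF3, -11.5% for DDX, -11.2% for RBM and -9.26% for DHX. No test was made on these sums.

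Few helicases passed. DHX9, RNA helicase A, which unwinds structured RNA, was at 250.02, 274 and 264 TPM with DMSO and 176, 189 and 218 TPM with sAKZ692. All treated libraries were lower, and the log2 fold change was -0.44 (standard error 0.09, adjusted p = 0.0107), a call lost without DMSO replicate 2 (adjusted p = 0.0518). DDX39A, an mRNA export and splicing helicase, fell from 182 ± 7.46 to 139 ± 19.5 TPM (SD, n = 3; adjusted p = 0.023). Its close relative DDX39B, also called UAP56, was at 451, 465 and 476 TPM with DMSO and 349, 359 and 441 TPM with sAKZ692, and missed the threshold (adjusted p = 0.0573), which it passed after median-ratio scaling (0.0115) and without replicate 3 (0.00018). DDX18 and DDX24, nucleolar helicases of ribosome assembly, had log2 fold changes of -0.27 and -0.23, and DHX37, which acts on the small ribosomal subunit, had -0.23 (adjusted p = 0.0497). DHX40, the second most abundant listed DHX gene, averaged 166 ± 2.41 and 182 ± 0.997 TPM and did not pass (adjusted p = 0.122), with all treated libraries above DMSO and a log2 fold change of -0.06 after median-ratio scaling.

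Each of these helicase calls was lost without at least 1 of the libraries. DDX39A, DDX24 and DHX37 lost theirs without any library other than replicate 3 of sAKZ692, DDX24 also under quantile normalization (adjusted p = 0.0831), and DDX18 without replicate 1 or 2 of either group. DDX11L2, the only DDX row that rose, is a pseudogene of uncertain level at 1.75, 1.05 and 2.73 TPM with DMSO and 3.66, 3.08 and 4.74 TPM with sAKZ692. Its call was lost without replicate 1 or 2 of either group and under both scalings (adjusted p = 0.0808 and 0.293). Of 22 DDX rows 3 were lower and 1 higher, and of 14 DHX rows 2 were lower and 0 higher. Their medians were -0.19 and -0.09, and among all genes tested 8.50% were lower and 24.1% higher. Median-ratio scaling gave 10 DDX and 7 DHX rows lower (19.2% of all genes). Without replicate 3 of sAKZ692 the lower counts were 10 and 4 (14.5% of all genes). Leaving out any 1 DMSO library gave 0 or 1 lower in either family, and leaving out replicate 1 or 2 of sAKZ692 gave 0 DDX and 1 DHX.

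Grouped by role, 1 of 9 tested splicing helicases was lower, as were 3 of 12 helicases of ribosome assembly and 1 of 13 in translation, mRNA turnover, RNA sensing and other tasks, and 0 were higher in each group, beside 8.50% lower among all genes tested, a share near that of the first and the last group. The medians were -0.11, -0.19 and -0.11. The count of 3 in ribosome assembly became 0 or 1 without 1 DMSO library and 0 without replicate 1 or 2 of sAKZ692. DHX8, DHX16 and DHX38, which act on the spliceosome, had log2 fold changes of -0.11, -0.11 and -0.05 and did not pass. After median-ratio scaling 7 of the 9 splicing helicases were lower, beside 19.2% of all genes tested.

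The RBM genes held the largest rise and several falls. RBM24, a splicing factor known from heart and skeletal muscle, was at 3.78, 4.33 and 4.21 TPM with DMSO and 13.4, 11.9 and 17.2 TPM with sAKZ692. Every treated library was far above DMSO, with a ratio of mean TPM of 3.45 and a log2 fold change of 1.56 (standard error 0.15, adjusted p = 0.000763), and the call was kept under every alternative. RBM38, its close paralog, averaged 67.3 ± 5.69 and 62.6 ± 3.28 TPM (SD, n = 3) and did not pass (adjusted p = 0.395), except after median-ratio scaling, where it was lower (0.0329). RBM20, known for splicing the titin transcript in heart, was at 3.48, 3.19 and 3.06 TPM with DMSO and 5.37, 6.74 and 9.42 TPM with sAKZ692, a log2 fold change of 0.92 (adjusted p = 0.00973) that missed the threshold under quantile normalization (adjusted p = 0.0964). RBM41 had a log2 fold change of 0.36, and its call was lost under both scalings (adjusted p = 0.196 and 0.738) and without any library other than replicate 3 of sAKZ692.

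RBM14, a paraspeckle protein that also acts as a coactivator, was at 124, 125 and 115 TPM with DMSO and 75.2, 84.7 and 82.7 TPM with sAKZ692. All treated libraries lay below DMSO, with a log2 fold change of -0.58 (standard error 0.07, adjusted p = 0.00184). RBM17, also called SPF45, fell from 134 ± 4.68 to 101 ± 4.16 TPM (SD, n = 3; adjusted p = 0.0046). RBM25, RBM4 and RBM42 had log2 fold changes of -0.32, -0.30 and -0.27, and their calls were lost without any 1 DMSO library (adjusted p up to 0.0772), that of RBM4 also without replicate 1 or 2 of sAKZ692. RBM39, the most abundant listed gene of the family and the protein degraded by aryl sulfonamide drugs, was at 265, 274 and 254 TPM with DMSO and 209.8, 251 and 209 TPM with sAKZ692 and missed the threshold (adjusted p = 0.0627), which it passed after median-ratio scaling (0.00763) and without replicate 2 or 3 of sAKZ692 (0.0213 and 0.0476). Of 28 RBM rows 5 were lower and 3 higher, beside 8.50% and 24.1% of all genes tested. The other 20 RBM rows did not pass, and the median of the 28 was -0.04. Median-ratio scaling gave 10 lower and 2 higher, quantile normalization 6 and 1, leaving out replicate 3 of sAKZ692 10 and 3, and leaving out any 1 DMSO library 2 and 2.

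Further lists of spliceosomal genes were read from the same fit, with all genes outside the rule except PRPF4B. Lower were 4 of 17 tested genes of the PRPF19 complex and the catalytic spliceosome, 3 of 7 Sm-like genes, 2 of 11 genes of SNRNP-named and minor spliceosome proteins, 1 of 4 genes of branch point and 3′ splice site recognition and 1 of 8 genes of particle assembly, with 0 higher in each list and 8.50% lower among all genes tested. Without 1 DMSO library these counts were 2 or 3, 2 or 3, 1, 1, and 0 or 1. Of 19 genes of the exon junction complex and mRNA export 7 were lower and 0 higher, and 5 to 7 were lower without 1 DMSO library. EIF4A3, the helicase core of the exon junction complex, was at 225, 225 and 228 TPM with DMSO and 149, 158 and 147 TPM with sAKZ692 (log2 fold change -0.58, adjusted p = 0.000959), all treated libraries far below DMSO. Of 14 SR-related proteins and SR protein kinases, PRPF4B among them, 5 were lower and 1, the kinase gene SRPK2, higher. Without 1 DMSO library 1 or 2 were lower. The rise of SRPK2 was lost after either scaling (adjusted p = 0.232 and 0.0737).

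Of 31 named neuronal and tissue splicing regulators 20 were listed and 18 tested. Of the 18 tested 9 were higher and 1 was lower, beside 24.1% higher and 8.50% lower among all genes tested. Their median log2 fold change was 0.55, beside 0.14 over all genes. CELF5 was at 2.26, 1.61 and 2.24 TPM with DMSO and 10.9, 10.2 and 9.02 TPM with sAKZ692. Its treated libraries all lay above DMSO (log2 fold change 1.87, adjusted p = 0.000439). CELF4 rose from 2.55 ± 0.308 to 8.79 ± 2.44 TPM (SD, n = 3; adjusted p = 0.00194). PTBP1, the repressor of neuronal exons, was at 659.8, 669.9 and 607 TPM with DMSO and 475, 470.4 and 510.3 TPM with sAKZ692 (log2 fold change -0.41, adjusted p = 0.0052). All treated libraries of PTBP1 lay below DMSO. After median-ratio scaling 9 were higher and 2 lower.

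RefSeq (GRCh38.p14) sequence of 250 bases before the first listed start was read for 99 of the tested splicing and helicase genes. In 79 of these windows (79.8%), and in 70.1% of those of all tested genes, an exon of the same gene in GENCODE v29 overlaps the window, so many listed starts lie inside the annotated gene. Sequence is shown for the largest fall and the largest rise among called genes whose window holds no such exon, chr2:38751495-38751744 (minus strand) for SRSF7 and chr6:17281814-17282063 (plus strand) for RBM24. Neither holds an E-box (CACGTG, the site bound by MYC and MYCN), an ETS core (CCGGAA) or the NRF1 motif on either strand, which would be in capitals.
SRSF7: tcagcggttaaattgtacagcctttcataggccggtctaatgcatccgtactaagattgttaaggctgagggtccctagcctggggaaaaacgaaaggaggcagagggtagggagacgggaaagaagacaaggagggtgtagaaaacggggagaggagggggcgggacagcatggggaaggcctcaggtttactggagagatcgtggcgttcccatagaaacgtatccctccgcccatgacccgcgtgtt
RBM24: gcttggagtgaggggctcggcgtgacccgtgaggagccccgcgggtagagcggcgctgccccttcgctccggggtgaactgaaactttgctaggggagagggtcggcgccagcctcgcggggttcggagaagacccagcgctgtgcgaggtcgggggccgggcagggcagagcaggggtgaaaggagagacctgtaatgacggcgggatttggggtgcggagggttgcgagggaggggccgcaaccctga

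Over all windows, the E-box was in 6 of 34 lower genes (17.6%), in 14 of the 99 (14.1%) and in 9.28% of all tested genes. In windows without an exon it was in 0 of 7 lower genes, 0 of 20 tested splicing and helicase genes and 8.43% of all tested genes. The ETS core was in 13 of the 34 (38.2%), in 39.4% of the 99 and in 25.9% of all tested genes, and without exons in 1 of 7, 4 of 20 and 18.1%. The NRF1 motif was in 8 of the 34 (23.5%), in 17.2% and in 10.7%, and without exons in 1 of 7, 1 of 20 and 7.76%. The core of the antioxidant response element bound by NRF2 (TGACNNNGC) was in 5 of the 34 (14.7%), in 13.1% and in 11.8%, and without exons in 2 of 7, 3 of 20 and 9.69%. CCAAT was in 47.1% of the 34 and 35.1% of all tested genes, and GGGCGG in 52.9% and 68.4%. TGACGTCA, TATAAA, AAGATGGCG, TTTCGCGC and TGATGNAAN were each in at most 3 of the 34. All motifs were read on both strands, and a match of letters is a description, not a bound site. The windows without an exon were set apart after the data were seen.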

How the data were processed

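Per the labels' protocols, total RNA of IMR32 cells was read from one end over 50 bases, with 20000000 reads stated per library. The authors deposited 1 table of TPM per gene symbol and library, and kallisto was used per the submitters' processing notes. The version, annotation, build and strand setting were not given in the sources used here. TPM keeps no read numbers, so depth is unknown and no counting interval was computed.

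Genes averaging 1 TPM or more (9137 of 11351) were tested on log2(TPM + 1), a scale that understates changes of low genes, with limma 3.58.1 in R 4.3.3 (mean-variance trend, Benjamini-Hochberg over all genes tested, threshold 0.05). The fit was tested on simulated data with independent noise for each gene. No simulated library stood apart as a whole, so that test cannot speak to replicate 3 of sAKZ692 or to the scaling. No label says whether the replicates came from separate cultures. The p-values therefore reflect spread among these samples only, and it may be technical. The members and lists were chosen with earlier results of these data known. Named genes were, per family, the 2 most abundant and up to 3 of the largest rises and 3 of the largest falls past the threshold without overlap, and up to 2 of each per other list; others named are further called genes, relatives of named genes or genes with a split library, named after their values were seen. Gene types, symbols (154 of 154 matched) and transcripts came from GENCODE v29, upstream windows from RefSeq (the first listed start per symbol, 102 of the 154). Alternatives were pseudocounts of 0.1 and 0.5, no filter or 5 TPM, median-ratio and quantile scaling, no trend, a block for replicate number and the omission of each library in turn.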

Additional observations from a re-analysis of the deposited data

How the results depend on the processing

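Median-ratio scaling gave 1242 genes higher and 1754 lower over the whole table, and quantile normalization 1077 and 1184. Of the splicing and helicase genes 3 were higher and 64 lower by median ratios, and 3 higher by quantiles. By median ratios the lower counts were 14 for HNRNP, 3 for SF3, 7 for PRPF, 10 for DDX, 7 for DHX and 10 for RBM, and the median log2 fold changes were -0.46 for HNRNP, -0.48 for SRSF, -0.39 for SF3, -0.48 for SNRP, -0.38 for PRPF, -0.36 for DDX, -0.27 for DHX and -0.20 for RBM. The summed TPM then differed by -32.1% for HNRNP, -32.3% for SRSF, -23.9% for SF3, -28.8% for SNRP, -24.5% for PRPF, -22.2% for DDX, -20.2% for DHX and -21.9% for RBM. By quantiles 4 SRSF genes were lower and 2 higher, 5 DDX lower and 1 RBM higher, with medians of -0.20 for SRSF, -0.18 for SNRP, -0.17 for DHX and -0.17 for RBM. DDX rows higher numbered 0 under both scalings and at a minimum of 5 TPM. With no filter the HNRNP median was -0.071 and 1 DHX row was lower, as with limma without its trend, which kept 28 of the 37 falls. SF3B6 turned to 0.05 by quantiles and DHX40 to -0.06 by median ratios.

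With each library left out in turn, 1213 to 3163 genes were higher and 404 to 1321 lower over the table, and 3 to 8 and 17 to 64 of the splicing and helicase genes. Lower counts ran from 5 to 15 for HNRNP, 4 to 7 for SRSF, 1 to 4 for SF3, 3 to 7 for SNRP, 2 to 7 for PRPF, 0 to 10 for DDX, 0 to 4 for DHX and 2 to 10 for RBM, and higher counts from 0 to 1 for HNRNP, SNRP, DDX and DHX. Medians ran from -0.36 to -0.23 for HNRNP, -0.34 to -0.28 for SRSF, -0.13 to -0.060 for DHX and -0.083 to 0.012 for RBM, which was 0.0015 and 0.0036 without DMSO replicates 1 and 2 and 0.0122 without replicate 1 of sAKZ692. SF3B6 ran from -0.07 to 0.01 (without DMSO replicate 3) and SNRPA from -0.38 to 0.00 (without replicate 1 of sAKZ692). The lowest lower count, 17, came without DMSO replicate 2, and the highest, 64, without replicate 3 of sAKZ692. The cause of these shifts was not tested.

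Same-numbered libraries of the 2 groups correlated in their deviations at 0.0614, -0.0246 and 0.0415, and libraries of unlike number at -0.0652 to 0.0411. With 3 libraries per group, these values cannot show whether same-numbered libraries shared a culture or batch. A replicate block gave 30 lower and 5 higher splicing and helicase genes, with 1 lower in DDX and 1 in DHX. TPM carries no read numbers, so depth limits cannot be stated.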
